A study of Homo sapiens with 8 samples.

Results

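Non-coding snoRNA host genes are long RNA genes whose introns carry small nucleolar RNAs (snoRNAs) and whose spliced product has no established protein. The genes described here are the rows of both count tables named SNHG followed by a number, together with GAS5, ZFAS1, DANCR and EPB41L4A-AS1. They number 32 of the 60664 genes listed. The cells were HEK293T, an immortalised human embryonic kidney line, made to express APEX2. This plant-derived peroxidase has been engineered to attach biotin to RNA close to it in living cells, and the tagged RNA was captured on streptavidin beads and sequenced. The 4 groups were labelled and unlabelled control cells with the enzyme in the nucleus (NLS) and labelled and unlabelled control cells with the enzyme at the outer mitochondrial membrane (OMM), with 2 libraries in each group. All groups express APEX2, and no other genotype or treatment is given in the labels. What the beads take up without labelling is what the controls measure, not whole-cell RNA, so each comparison asks which RNAs took a larger or smaller share of the capture when the enzyme at that place was active.

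The NLS libraries were made from ribosomal-RNA-depleted RNA with the SMARTer kit for stranded total RNA-seq, and the OMM libraries with the TruSeq kit for stranded mRNA, which selects polyadenylated RNA. The compartment therefore cannot be told apart from the kit and the RNA selection. Total counts were 9531568 and 8039176 in the labelled NLS libraries and 20746393 and 21096586 in the NLS controls. They were 52421161 and 34705126 in the labelled OMM libraries and 41660431 and 35165227 in the OMM controls. The libraries of a group differed far more at OMM, with an edgeR biological coefficient of variation of 0.166 for NLS against 0.958 for OMM. Whether libraries stem from separate cultures is not in the labels, so every p-value reflects the spread between libraries alone, which may be technical. Of 7 genes known from HEK293T cells, all were counted in both compartments, and they summed to 329.98 and 289.7 CPM in labelled NLS libraries and 850.3 and 858 CPM in NLS controls, with 4 of them (VIM, NEFL, NEFM and CDH2) called lower. PAX2, a kidney developmental factor, averaged 5.02 CPM in labelled NLS libraries and 3.44 CPM in NLS controls. LHX1, another, averaged 0.636 CPM in labelled NLS libraries and 1.69 CPM in NLS controls. The 9 markers of blood, liver, glial, endothelial, heart and islet cells summed to 0.618 to 1.14 CPM in labelled NLS libraries and 2.40 to 2.48 CPM in NLS controls, and 8 of the 9 were at 0 in every OMM library.

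snoRNAs ride inside introns of such genes and are freed when the host transcript is spliced and the excised intron is trimmed. Box C/D snoRNAs guide 2′-O-methylation and box H/ACA snoRNAs guide pseudouridylation of ribosomal and spliceosomal RNA, and the related scaRNAs work in Cajal bodies. Many hosts begin with a pyrimidine tract, as ribosomal protein genes do, and their spliced RNAs are exported and are known to be removed in the cytoplasm by nonsense-mediated decay. By the annotation (GENCODE 29, GRCh38), 29 of the 32 hosts contained at least 1 snoRNA or scaRNA gene on the same strand, 139 in all. SNHG14, the long RNA of the imprinted region on chromosome 15, held 84 of these. GAS5, known as a host of several box C/D snoRNAs, had none placed inside it by this annotation, and neither had SNHG27 or SNHG28.

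The snoRNAs below belong to the hosts on which the results turn. The 3 box C/D snoRNAs of ZFAS1 and the 2 of SNHG16 that were called are shown first, written 5′ to 3′ as DNA letters from the GENCODE 29 transcripts, with TGATGA (box C) where it lies in the first 20 bases and CTGA (box D) in the last 20 bases in capitals.
SNORD12C (ZFAS1, chr20:49278940-49279028, plus strand): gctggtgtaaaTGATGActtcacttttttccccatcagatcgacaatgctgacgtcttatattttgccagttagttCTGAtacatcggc
SNORD12 (ZFAS1, chr20:49280683-49280772, plus strand): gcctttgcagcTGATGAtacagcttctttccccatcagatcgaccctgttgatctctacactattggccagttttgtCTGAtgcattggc
SNORD12B (ZFAS1, chr20:49280319-49280409, plus strand): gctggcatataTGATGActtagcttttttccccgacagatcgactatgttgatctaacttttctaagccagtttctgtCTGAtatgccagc
SNORD1B (SNHG16, chr17:76561109-76561192, plus strand): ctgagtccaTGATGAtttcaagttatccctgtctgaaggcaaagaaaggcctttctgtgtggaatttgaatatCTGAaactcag
SNORD1C (SNHG16, chr17:76558791-76558868, plus strand): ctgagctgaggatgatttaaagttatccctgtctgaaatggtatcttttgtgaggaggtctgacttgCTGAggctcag

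Both letter strings in their windows, read on the transcript strand alone, were found in 187 of 278 annotated SNORD transcripts (67.3%). SNORD1C lacked the exact TGATGA in its first 20 bases, which says only that those letters were not in that window. Next are box H/ACA snoRNAs of SNHG17, the host with the highest fold change at NLS, and of SNHG3, whose snoRNAs were the only ones called lower among those tested. Capitals mark ACA, the box near the 3′ end, which was found in the last 20 bases of 137 of 147 annotated SNORA transcripts (93.2%).
SNORA71A (SNHG17, chr20:38427309-38427442, minus strand): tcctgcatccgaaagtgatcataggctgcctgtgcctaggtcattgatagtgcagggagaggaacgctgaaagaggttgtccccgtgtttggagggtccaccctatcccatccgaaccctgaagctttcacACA
SNORA71C (SNHG17, chr20:38429670-38429803, minus strand): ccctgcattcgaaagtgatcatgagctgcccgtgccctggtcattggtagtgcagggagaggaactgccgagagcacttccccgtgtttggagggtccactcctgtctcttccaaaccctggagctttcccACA
SNORA73A (SNHG3, chr1:28507366-28507571, plus strand): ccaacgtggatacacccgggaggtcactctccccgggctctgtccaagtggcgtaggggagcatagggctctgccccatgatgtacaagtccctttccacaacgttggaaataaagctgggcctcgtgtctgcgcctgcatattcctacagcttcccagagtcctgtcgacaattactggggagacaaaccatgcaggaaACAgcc
SNORA73B (SNHG3, chr1:28508559-28508762, plus strand): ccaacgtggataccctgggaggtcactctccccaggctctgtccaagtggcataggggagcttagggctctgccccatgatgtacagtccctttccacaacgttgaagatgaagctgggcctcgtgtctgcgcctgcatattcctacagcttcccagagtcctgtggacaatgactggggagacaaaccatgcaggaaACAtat

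The start sites were read from RefSeq (GRCh38.p14), which held 28 of the 32 hosts. A C at the start followed by at least 4 bases that are each C or T, read on the transcript strand only, was present in 7 of the 28 (25%), in 44 of 81 ribosomal protein genes (54.3%) and in 1429 of all 35116 starts (4.07%). The first 20 bases of 5 hosts with the tract, shown because this is a feature that the choice of genes did not use, have the tract in capitals. The starts of SNHG17, which rose at NLS, and SNHG16, which fell, follow, and neither has it at the annotated base. No start of SNHG6, the other host that fell, was used.
ZFAS1 (chr20:49278642-49278661, plus strand): CTTTCgcgtctgcggtgccc
SNHG5 (chr6:85678714-85678733, minus strand): CTTTTacgtcggccttcgcg
SNHG4 (chr5:139274101-139274120, plus strand): CCCTTTCCCCTCCggcctct
SNHG32 (chr6:31834916-31834935, plus strand): CTTTTTgcgaagtgggctcg
SNHG12 (chr1:28581854-28581873, minus strand): CCTTTCTCCCCgccgcattc
SNHG17 (chr20:38435309-38435328, minus strand): agtccttcgccgtccctcgc
SNHG16 (chr17:76557764-76557783, plus strand): gcgttcttttcgaggtcggc

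In the nucleus, the summed share of the hosts was larger in the labelled capture, and about as many hosts passed the test in the higher direction as did not pass. The read share of each gene (CPM, counts scaled to a common library total with edgeR's TMM factors) summed over all 32 hosts to 2232 and 2479 in labelled NLS libraries and to 1485 and 1769 in NLS controls. SNHG17 alone made up a large part of this gap, with a mean of 406.7 CPM in labelled NLS libraries and 88.0 CPM in NLS controls. A filter on low counts left 29 hosts, and the other 3, SNHG18, SNHG27 and SNHG28, had at most 7 counts in any NLS library. By edgeR's quasi-likelihood test, with p-values adjusted by the Benjamini-Hochberg method over 20858 genes and a threshold of 0.05, 14 hosts rose and 2 fell. The background is wide, since 28.8% of all genes tested rose and 28.5% fell. Both labelled libraries lay above both controls for 18 of the 29 hosts, against 45.1% of all genes, and below both for 2, against 37.7%. The median log2 fold change of the hosts was 0.57, beside 0.14 for all genes tested, and the hosts' median depended on 1 library: without control library 1 it was 0.21, beside 0.13 for all genes. The authors' deposited table calls 13 hosts higher and 2 lower at NLS, where it calls 22.1% of genes higher and 20.2% lower.

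**Figure D1:**
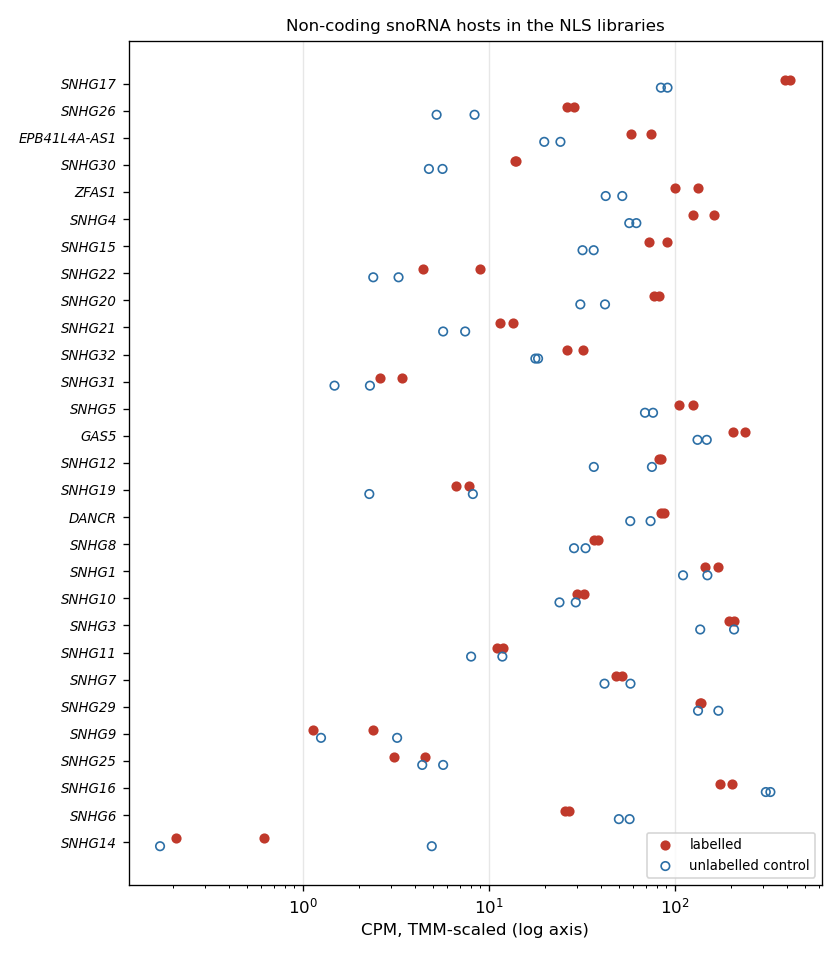
CPM of the 29 tested hosts in each NLS library on a log axis, with labelled libraries as filled points and unlabelled controls as open points, ordered by fold change. SNHG17, with 393.7 and 419.6 CPM in labelled libraries and 84.4 and 91.6 CPM in controls, heads the order, and the labelled points lie to the left of both controls for SNHG16 and SNHG6.

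SNHG17 (chr20:38420588-38435353, minus strand), host of the SNORA71 family, had the highest fold change. It stood at 393.7 and 419.6 CPM in labelled libraries and at 84.4 and 91.6 CPM in controls. The labelled libraries were both far above both controls, and the log2 fold change was 2.21 ± 0.10 (SE; edgeR adjusted p = 1.78e-05). SNHG26 (chr7:22854178-22861579, plus strand) had 26.2 and 28.9 CPM in labelled libraries and 5.26 and 8.40 CPM in controls. Its groups did not overlap, with a log2 fold change of 2.01 ± 0.25 (SE; edgeR adjusted p = 0.000338).

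EPB41L4A-AS1 (chr5:112160526-112164276, plus strand), which lies beside and partly antisense to the gene EPB41L4A and carries SNORA13, had 58.3 and 74.9 CPM in labelled libraries and 24.3 and 19.9 CPM in controls. Every labelled value was more than every control value, and the log2 fold change was 1.59 ± 0.17 (SE; edgeR adjusted p = 0.000153). SNHG30, annotated as LINC02001, had 13.9 and 14.0 CPM in labelled libraries and 5.66 and 4.78 CPM in controls. Its groups were apart, and it rose by 1.42 ± 0.25 on the log2 scale (SE; edgeR adjusted p = 0.0021).

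ZFAS1 (chr20:49278178-49295738, plus strand), which starts beside ZNFX1 on the other strand, had 100.9 and 133.4 CPM in labelled libraries and 42.6 and 52.3 CPM in controls. SNHG4 (chr5:139274102-139284899, plus strand), host of SNORA74A and SNORA74D, had 125.7 and 162.5 CPM in labelled libraries and 62.3 and 57.0 CPM in controls. In both hosts the labelled libraries stood clear of the controls, at log2 fold changes of 1.30 ± 0.16 for ZFAS1 and 1.27 ± 0.14 for SNHG4 (SE; edgeR adjusted p = 0.000322 and 0.000161). SNHG4 shares exonic bases with MATR3 on its own strand, so some of its reads cannot be assigned between them.

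GAS5 (chr1:173863900-173868882, minus strand), known as a decoy of the glucocorticoid receptor and named for its accumulation in growth-arrested cells, rose less. It had 205 and 238.9 CPM in labelled libraries and 132.8 and 148.9 CPM in controls. The groups did not overlap, and the log2 fold change was 0.66 ± 0.11 (SE; edgeR adjusted p = 0.00161). SNHG5 (chr6:85660950-85678748, minus strand), host of SNORD50B, had 105.9 and 125.6 CPM in labelled libraries and 69.3 and 76.6 CPM in controls. Its fold change was almost the same, 0.67 ± 0.12 (log2, SE; edgeR adjusted p = 0.00221).

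DANCR, host of SNORA26 and known for holding back cell differentiation, had the smallest fold change of those called higher. It stood at 84.9 and 87.8 CPM in labelled libraries and 57.8 and 74.3 CPM in controls. The log2 fold change was 0.39 ± 0.14 (SE; edgeR adjusted p = 0.0415), and DANCR was not called when control library 1 or either labelled library was left out. The other 5 hosts that rose were SNHG15, SNHG22, SNHG20, SNHG21 and SNHG32, with log2 fold changes of 1.25, 1.25, 1.12, 0.93 and 0.69, of which SNHG32 is annotated as the protein-coding gene C6orf48. SNHG22 was the least certain, with 102 and 43 counts in labelled libraries, 42 and 57 counts in controls and an edgeR adjusted p of 0.0447. It was not called by DESeq2, with a replicate block or without labelled library 1. SNHG21 was not called when either labelled library was left out or the length trend was removed, and SNHG32 was not called without labelled library 3.

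SNHG16 and SNHG6 ran the other way. SNHG16 (chr17:76557766-76565348, plus strand), host of SNORD1A, SNORD1B and SNORD1C, had 175.6 and 203.1 CPM in labelled libraries and 327.3 and 309.2 CPM in controls. Both labelled libraries were below both controls, and the log2 fold change was -0.75 ± 0.10 (SE; edgeR adjusted p = 0.000538). With scaling by library size alone it was -0.23 and was not called. SNHG6 (host of SNORD87) had 27.2 and 25.9 CPM in labelled libraries and 50.2 and 57.3 CPM in controls. Its groups did not overlap either, at a log2 fold change of -1.02 ± 0.14 (SE; edgeR adjusted p = 0.000504), and it was called lower under every alternative run.

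Among the 8 hosts with the highest mean CPM, 3 did not pass the test at NLS. SNHG3 (chr1:28505980-28510892, plus strand), which shares exonic bases with RCC1 on its own strand, had 195.3 and 207.3 CPM in labelled libraries and 137.3 and 208.7 CPM in controls, a log2 fold change of 0.22 ± 0.18. SNHG1 (chr11:62851988-62855914, minus strand), a compact host of 7 box C/D snoRNA genes, had 146.4 and 171.4 CPM in labelled libraries and 111 and 150.0 CPM in controls, a log2 fold change of 0.28 ± 0.15. SNHG29, annotated as LRRC75A-AS1 and host of SNORD49A, SNORD49B and SNORD65, had 136.5 and 139.4 CPM in labelled libraries and 133.6 and 171.9 CPM in controls, a log2 fold change of -0.15 ± 0.13 (SE). In each of the 3, at least 1 labelled library fell between the controls, and control library 3 was the higher control. The median ratio of the higher to the lower library over tested hosts was 1.17 within the labelled NLS libraries and 1.29 within the NLS controls. These 3 depended on the setting. SNHG3 and SNHG1 passed the test, in the higher direction, without control library 3 and with library size alone, and SNHG1 also without a filter, with a replicate block and with the length trend removed. SNHG29 was called lower without control library 1 (-0.32; edgeR adjusted p = 0.0282) and higher with library size alone (0.37; edgeR adjusted p = 0.031).

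The other hosts that did not pass ranged from 0.67 for SNHG31 to -2.58 for SNHG14 in log2 fold change. SNHG14 rested on 7 and 2 counts in labelled libraries and 3 and 86 counts in controls, so 1 control library carried it. SNHG12 had 84.4 and 82.4 CPM in labelled libraries and 36.8 and 75.5 CPM in controls, without overlap, yet its log2 fold change of 0.57 ± 0.28 was not called. Per kilobase of exon, SNHG17 had the highest mean CPM of the hosts in labelled NLS libraries (97.1, against 21.0 in controls), and SNHG16 the highest in NLS controls (59.4, against 35.3 in labelled libraries). Length did not order the fold changes: the Spearman rank correlation of log2 fold change with exonic length was 0.015 over the 29 hosts, with genomic span 0.23 and with the number of exon blocks 0.19, given as descriptions of genes measured in the same libraries. Of 6 tested hosts with the pyrimidine tract at the RefSeq start, 4 rose and none fell (ZFAS1, SNHG5, SNHG4 and SNHG32 rose). Of 19 with another start, 9 rose and 1 fell. Of 4 for which no start was used, 1 rose and 1 fell. Over all genes tested, 28.8% rose and 28.5% fell. These are few genes, and the difference by start was not tested.

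At OMM no host passed edgeR's test, and most values pointed to smaller shares in the labelled capture. The summed CPM of the 32 hosts was 1477 and 1350 in labelled OMM libraries and 1878 and 1875 in OMM controls. Of 25 hosts that passed the filter, 0 were called higher and 0 lower by edgeR's quasi-likelihood test (Benjamini-Hochberg adjusted over 14438 genes), where 0.139% of all genes were called higher and 0.0554% lower. At an unadjusted p under 0.05 there were 6 of the 25 hosts, beside 10.6% of all genes. The log2 fold change was negative in 21 of the 25, with a median of -0.80, beside -0.0017 for all genes. Both labelled libraries lay below both controls for 16 of the 25, against 22.5% of all genes, and above both for 2, against 21.3%. A host with a group at 0 can pass the filter only through the other group, so these counts cover the hosts that passed and not all 32. Leaving out groups with a library at 0, the median ratio of the higher to the lower library was 1.44 (labelled OMM) and 1.35 (OMM controls). At NLS these ratios over tested hosts were 1.17 and 1.29.

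**Figure D2:**
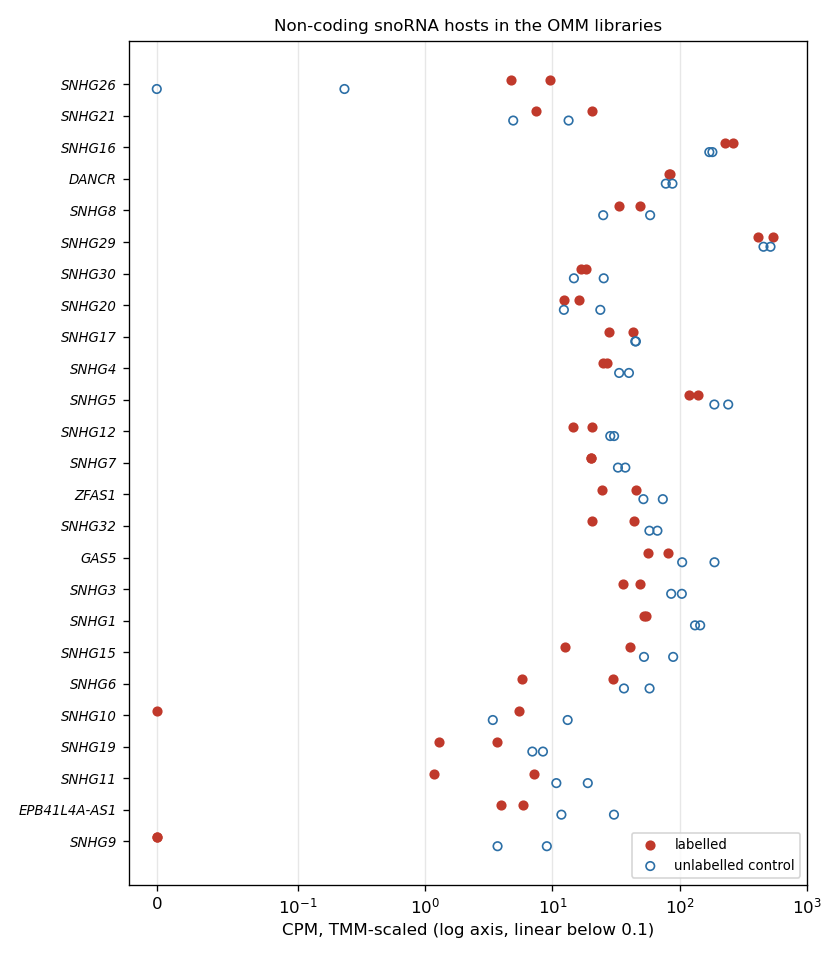
CPM of the 25 tested hosts in each OMM library, with labelled libraries as filled points and unlabelled controls as open points, on an axis that is logarithmic above 0.1 and linear below it. SNHG1, at 52.1 and 54.7 CPM in labelled libraries and 144.9 and 131.9 CPM in controls, is among the hosts whose labelled points lie left of both controls, while those of SNHG16 and SNHG26 lie right of both.

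SNHG1 had 52.1 and 54.7 CPM in labelled OMM libraries and 144.9 and 131.9 CPM in OMM controls. The groups were well apart, with the smallest p of the hosts: the log2 fold change was -1.37 ± 0.29 (SE), at an edgeR adjusted p of 0.13. In the authors' deposited table the log2 fold change of SNHG1 was -1.37, with a p of 3.35e-09. DESeq2 on the same counts gave the same value as an adjusted p, so the tools differ in their call and hardly in the size of the change.

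SNHG3 had 48.8 and 36.0 CPM in labelled OMM libraries and 85.7 and 103.9 CPM in OMM controls. GAS5 had 55.8 and 81.1 CPM in labelled OMM libraries and 187.8 and 104.6 CPM in OMM controls. SNHG5 had 138.9 and 119.1 CPM in labelled OMM libraries and 240.6 and 187.2 CPM in OMM controls. All 3 were below both controls in both labelled libraries, with log2 fold changes of -1.16 ± 0.35, -1.09 ± 0.37 and -0.73 ± 0.25 (SE) that did not pass edgeR's test.

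ZFAS1 had 45.1 and 24.4 CPM in labelled OMM libraries and 73.7 and 51.8 CPM in OMM controls, a log2 fold change of -0.85 ± 0.46 (SE). EPB41L4A-AS1 had 5.82 and 3.91 CPM in labelled OMM libraries and 11.7 and 30.4 CPM in OMM controls, a log2 fold change of -2.11 ± 0.93 (SE). Both were lower in each labelled library than in either control, but neither was called.

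DANCR and SNHG29 showed no gap at OMM. DANCR had 83.6 and 82.6 CPM in labelled OMM libraries and 77.8 and 87.7 CPM in OMM controls, a log2 fold change of 0.0061 ± 0.30 (SE). SNHG29 had 539.4 and 409.1 CPM in labelled OMM libraries and 455.8 and 517.5 CPM in OMM controls, a log2 fold change of -0.037 ± 0.21 (SE). The labelled and control values overlapped for both hosts.

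SNHG16 and SNHG26 were the only tested hosts with both labelled OMM libraries above both controls. SNHG16 had 226.9 and 263.0 CPM in labelled OMM libraries and 171.0 and 180.8 CPM in OMM controls, a log2 fold change of 0.48 ± 0.22 (SE) that edgeR did not call (adjusted p = 0.506). SNHG26 had 504 and 172 counts in labelled OMM libraries and 9 and 0 counts in OMM controls. Its labelled values, 9.52 and 4.74 CPM, stood far above 0.231 and 0 CPM in the controls, yet edgeR's adjusted p was 0.589. The authors' deposited table calls these 2 higher and 6 hosts lower at a p under 0.05 (SNHG1, SNHG3, GAS5, SNHG5, EPB41L4A-AS1 and SNHG9), where it calls 6.53% of genes higher and 5.7% lower.

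SNHG9, a short single-exon host of SNORA78, had 0 and 0 counts in labelled OMM libraries and 351 and 131 counts in OMM controls. Set against a floor of 3 counts per library, it was at least 91.3-fold lower in labelled libraries, although edgeR's adjusted p was 0.418. A floor covers counting error only. The 6 hosts SNHG14, SNHG18, SNHG22, SNHG27, SNHG28 and SNHG31 had 0 counts in all 4 OMM libraries, which allows up to 0.0567 to 0.0847 CPM, and SNHG25 had 112 counts in 1 control and 0 in the other 3 libraries. Per kilobase of exon, SNHG29 had the highest mean CPM of the hosts at OMM, 126.2 in labelled libraries and 129.5 in controls. On this scale, the control CPM of NLS and OMM had a Spearman correlation of 0.84 over the 32 hosts. These include the 6 with 0 counts at OMM, which were also the lowest 6 in NLS controls. The log2 fold changes of NLS and OMM had a Spearman correlation of 0.24 over 25 hosts, with SNHG9 ranked lowest at OMM. Both correlations are descriptions of genes that share libraries.

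**Figure D3:**
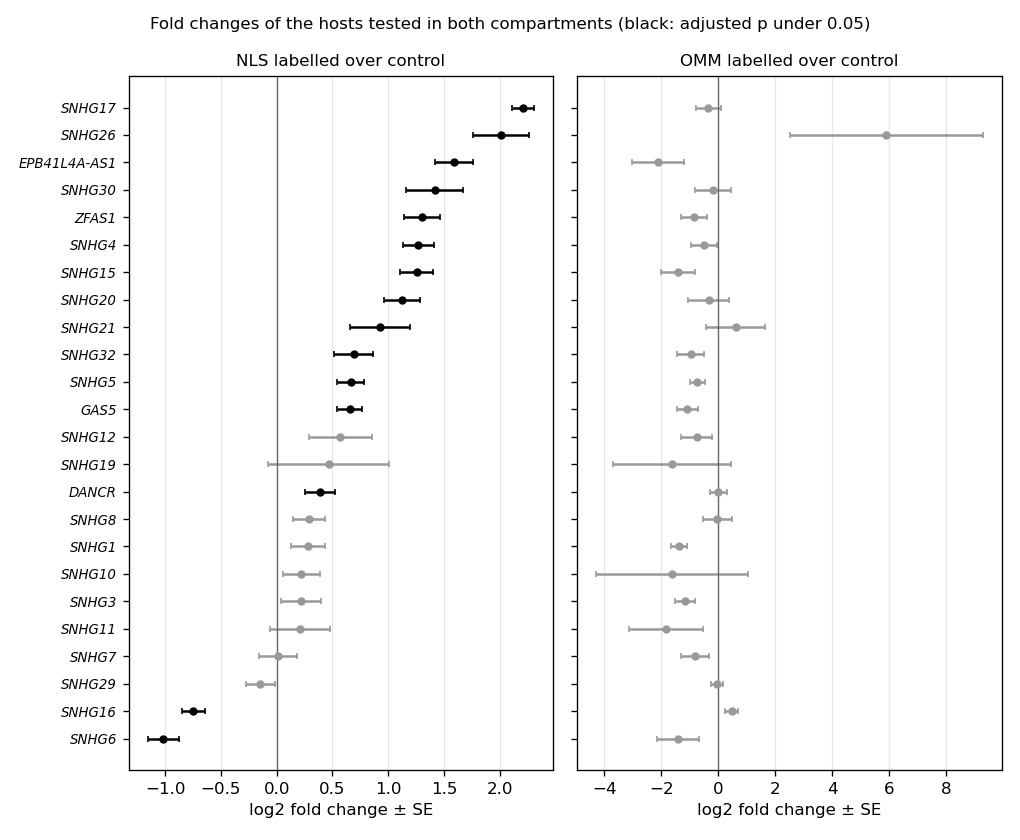
Log2 fold change of labelled over control with its SE for the 24 hosts with fitted values in both compartments, NLS on the left and OMM on the right, in 1 order and on separate horizontal scales. Black marks an edgeR adjusted p under 0.05, which 15 of the hosts drawn reach at NLS and none at OMM, and SNHG16 lies left of 0 at NLS and right of 0 at OMM.

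The difference between the compartments was tested as the interaction in a joint fit of the 8 libraries, as the NLS log2 fold change minus the OMM one. That fit gave each gene 1 spread for both compartments, although the libraries of a group differed far more at OMM. The SE of a difference can therefore be too small: for SNHG16 it was 0.19, below the 0.22 of its OMM log2 fold change alone. By edgeR's quasi-likelihood test 5 of 29 hosts had a positive difference and 1 a negative one, where 1.41% of 23178 genes were positive and 6.73% negative. The 29 include SNHG14, SNHG22 and SNHG31, which had 0 counts in every OMM library and so could give no usable difference. SNHG17 differed by 2.53 ± 0.31 (SE; edgeR adjusted p = 0.00828). It had 42.8 and 28.0 CPM in labelled OMM libraries and 45.2 and 44.7 CPM in OMM controls, so the wide gap seen at NLS was absent there. SNHG1 differed by 1.64 ± 0.26 (SE; edgeR adjusted p = 0.0156), with most of the distance on the OMM side.

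SNHG4 differed by 1.75 ± 0.29 (SE; edgeR adjusted p = 0.0185), and had 25.1 and 26.8 CPM in labelled OMM libraries and 39.9 and 33.4 CPM in OMM controls. EPB41L4A-AS1 differed by 3.67 ± 0.71 and SNHG5 by 1.37 ± 0.27 (SE; edgeR adjusted p = 0.0303 and 0.0306). Each of these hosts was higher with labelling at NLS and stood lower, without a call, at OMM. SNHG16 was the opposite case, with a difference of -1.25 ± 0.19 (SE; edgeR adjusted p = 0.0136). With DESeq2 size factors or library size alone, the split became 8 positive and 0 negative, with SNHG16 at -0.83 and -0.79 and not called. DESeq2's Wald test called 16 hosts positive and 2 negative, where it called 12.3% of genes positive and 10.8% negative. These calls also rested on every NLS library: without control library 1 or 3 no host and no gene of any kind passed (10 and 14 hosts had an unadjusted p under 0.05), although the differences stayed close in size, at 2.50 and 2.62 for SNHG17 and -1.17 and -1.25 for SNHG16, and without either labelled NLS library 1 host, SNHG17, stayed positive. ZFAS1, GAS5 and SNHG3, at positive differences of 2.13, 1.74 and 1.36, lay just past the threshold (edgeR adjusted p = 0.0537, 0.0661 and 0.0676).

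At NLS the snoRNAs inside the hosts could be counted as genes of their own, although their counts do not tell reads of a snoRNA from reads of unspliced host RNA across it. Of the 139, 52 passed the filter. Of these 17 rose (32.7%) and 2 fell (3.8%), beside 28.8% and 28.5% of all genes tested, so the share that rose was near the background. Their median was 0.88 on the log2 scale, beside 0.14 for all genes. The authors' deposited table calls 14 of the 52 higher, 13 of them shared with edgeR, and 1 lower. It does not call SNORD12B, SNORD28, SNORD48, SCARNA17 or SNORA73B, and calls SNORD49A in SNHG29 instead. Box C/D snoRNAs had 11 of 24 higher and 0 lower, at a median of 1.23. Box H/ACA snoRNAs had 5 of 24 higher and 2 lower, at a median of 0.51, and of 4 scaRNAs 1 rose, SCARNA17 in SNHG22. SNORA16A and SNORA17B each appear under 2 identifiers with the same counts, so 50 of the 52 are distinct. Of the 139, 47 overlap an annotated host exon, where reads of host and snoRNA cannot be told apart. The 139 include 84 in SNHG14, none of which passed the filter, and most of the 52 tested overlap a host exon. Among called snoRNAs these are SNORD1C, SNORD12, SNORA71, SNORD50B, SNORD48, SNORA9, SNORD28, SNORD30, 1 SNORD22 identifier, SCARNA17 and SNORA73A.

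SNORD12C in ZFAS1, a guide of methylation in ribosomal RNA and the first sequence printed above, had 192 and 183 counts in labelled NLS libraries and 35 and 36 counts in NLS controls. The groups were widely separated, at a log2 fold change of 3.14 ± 0.27 (SE; edgeR adjusted p = 5.56e-05), above that of its host. SNORD12 and SNORD12B in the same host rose by 2.51 ± 0.62 and 0.83 ± 0.27 on the log2 scale (SE; edgeR adjusted p = 0.00967 and 0.0309). In SNHG17 the genes SNORA71A, SNORA71C, SNORA71B and SNORA71 rose by 1.33, 1.61, 1.90 and 2.07 on the log2 scale, all below the 2.21 of the host, and SNORA71D, at 1.48, was not called. These are related copies of similar sequence, so the authors' counting may split or drop their reads.

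SNHG16 and its snoRNAs went opposite ways. SNORD1B had 41 and 64 counts in labelled NLS libraries and 15 and 6 counts in NLS controls, a log2 fold change of 3.07 ± 0.66 (SE; edgeR adjusted p = 0.0052). SNORD1C had 97 and 121 counts in labelled NLS libraries and 30 and 69 counts in NLS controls, a log2 fold change of 1.89 ± 0.45 (SE; edgeR adjusted p = 0.00809). Both snoRNAs rose while the host fell, and SNORD1A, at 1.47 ± 0.66, did not pass. The difference in direction between host and snoRNA was not tested as such.

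SNORA73A and SNORA73B, the U17 snoRNAs needed for early cleavage of the ribosomal RNA precursor, fell by edgeR's test, SNORA73B only just. SNORA73A had 410 and 246 counts in labelled NLS libraries and 941 and 2248 counts in NLS controls, a log2 fold change of -1.56 ± 0.37 (SE; edgeR adjusted p = 0.00839). SNORA73B had 757 and 491 counts in labelled NLS libraries and 1506 and 4319 counts in NLS controls, a log2 fold change of -1.50 ± 0.50 (SE; edgeR adjusted p = 0.0488). In the authors' deposited table the p was 0.0381 for SNORA73A and 0.0865 for SNORA73B. Control library 3 had more than 2 times the counts of control library 1 for both, as it did for SNORA74A and SNORA17B, and its part in the result was not tested. Their host SNHG3 did not pass the test, at 0.22.

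In SNHG1, 3 of its 7 snoRNA genes rose while the host did not pass: SNORD30 at 2.51, a second identifier listed as SNORD22 at 1.84, and SNORD28 at 0.98. The remaining snoRNAs called higher were SNORD50B in SNHG5 at 2.14, SNORD99 in SNHG12 at 1.73, SNORD48 in SNHG32 at 1.39 and SNORA9 in SNHG15 at 1.36. Inside hosts that rose, 11 of 20 tested snoRNAs rose and 0 fell, at a median of 1.37. SNORA13 in EPB41L4A-AS1 (-1.27), SNORA74A in SNHG4 (-1.01) and SCARNA16 in SNHG20 (-0.12) had negative log2 fold changes. Their groups overlapped, and they were not called. Inside hosts that did not pass, 4 of 28 rose and 2 fell, at a median of 0.45. Inside the 2 hosts that fell, 2 of 4 rose. Over all genes tested, 28.8% rose and 28.5% fell. The 28 count SNORA16A and SNORA17B under 2 identifiers each. Across all 52 the Spearman correlation with the fold change of the host was 0.30, a description of genes that share libraries and, in part, reads. At OMM 14 of the snoRNAs passed the filter and 0 were called by edgeR, with 1 at an unadjusted p under 0.05, beside 10.6% of all genes. DESeq2 called 6 of the 16 it tested, all lower, where it called 5.7% of genes lower. Among the 14 fitted by edgeR the lower quartile was -9.80 on the log2 scale, a size that a labelled group at or near 0 gives. A gene near 0 in 1 group is tested only through the other group, so the direction of such calls is not read as a result.

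**Figure D4:**
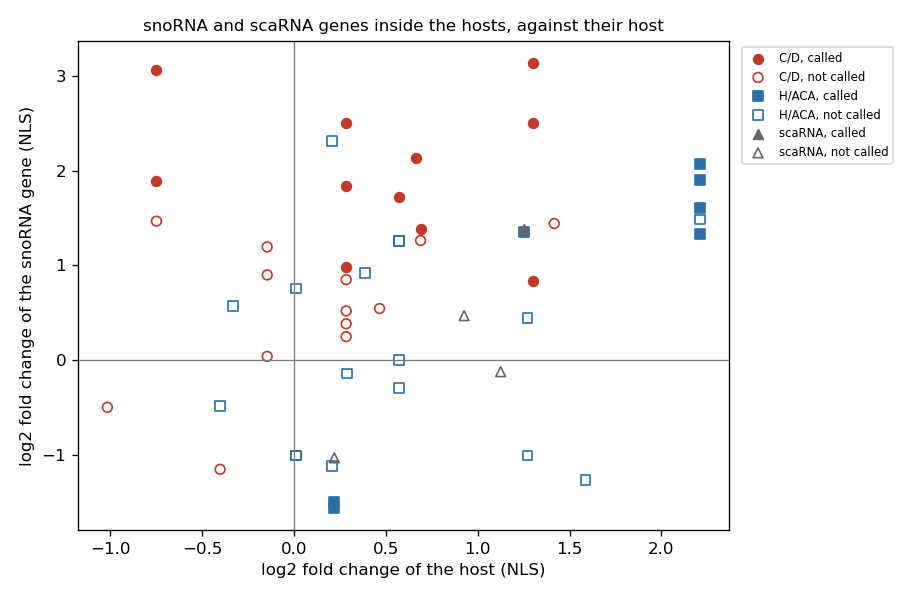
NLS log2 fold change of 52 snoRNA and scaRNA genes against that of the host they lie in, with box C/D as circles, box H/ACA as squares and scaRNAs as triangles, filled where edgeR's adjusted p was under 0.05. The 2 filled circles at the upper left are SNORD1B at 3.07 and SNORD1C at 1.89 in SNHG16, and the filled squares at the bottom are SNORA73A and SNORA73B in SNHG3.

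Other genes of the pathway mostly fell at NLS. Protein-coding genes with a snoRNA inside numbered 180, of which 172 were tested, and 25 rose and 112 fell, at a median of -0.76. These are 14.5% and 65.1%, beside 28.8% and 28.5% of all genes tested. All genes tested include the other long non-coding RNAs, of which 3.3% fell, and no share for protein-coding genes alone was computed. Whether the fall was particular to the pathway was therefore not tested. DGLUCY had the highest log2 fold change, at 1.80. RAMP1 at -2.25 and the ribosomal protein gene RPS3A at -2.24 had the lowest. Of 24 genes for the proteins of snoRNA particles and their assembly factors, 0 rose and 19 fell (79.2%, beside the same 28.5%), at a median of -0.77. NOP10 and NHP2, core proteins of H/ACA particles, were at -2.03 ± 0.21 and -1.68 ± 0.15, and FBL, the methyltransferase fibrillarin of C/D particles, at -1.49 ± 0.10 (log2, SE). NOP58, ZNHIT6, NAF1, PIH1D1 and ZNHIT3 were not called.

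Other long non-coding RNAs had higher fold changes at NLS than the hosts. Of 3357 other long non-coding RNA genes tested, 1562 rose and 112 fell, at a median of 1.78, and the hosts' median was 0.57. The shares called were alike, at 46.5% higher and 3.3% lower for these genes and 48.3% and 6.9% for the hosts. Over all genes tested they were 28.8% and 28.5%. The middle range of the hosts, from the lower to the upper quartile, was 0.21 to 1.25, against 0.60 to 2.98 for the other long non-coding RNAs and -1.44 to 0.010 for the protein-coding hosts. At OMM the medians were -0.80 for the hosts, -0.090 for other long non-coding RNAs, -0.23 for protein-coding hosts and -0.44 for the particle proteins. The differences between these lists were not tested.

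**Figure D5:**
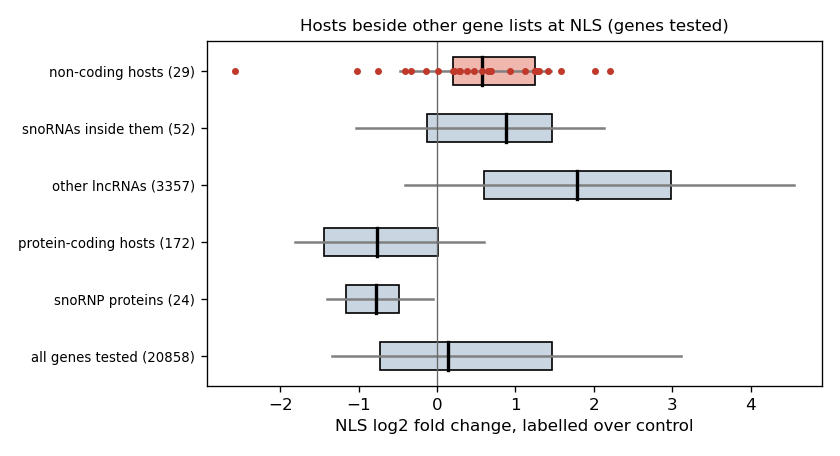
NLS log2 fold change of labelled over control for the hosts and 5 other lists of tested genes, with the number tested in brackets. Boxes span the quartiles with the median as a thick line, grey lines run from the 10th to the 90th percentile, and points are the 29 hosts, whose median of 0.57 lies between 1.78 for other long non-coding RNAs and -0.76 for protein-coding hosts.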

How the data were processed

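Gene-level counts were deposited by the authors. Named in the submitters' processing notes are STAR, HTSeq, DESeq2, bedtools, SAMtools and Trimmomatic, with builds GRCh38.p13 and hg38. Tool versions and the counter's strand and overlap modes were not given in the sources used here. Of the 32 hosts, 19 share exonic bases with another gene, small RNA genes left out, 7 of them on the same strand. Their reads cannot be fully assigned. The same holds for hosts whose exons overlap a snoRNA gene on the same strand, as 47 of the 139 snoRNAs do. SNHG1 and SNHG5 are among those hosts. A log2 fold change and a p-value per gene were deposited too. Running DESeq2 on the counts returned their log2 fold changes to within 0.01 for 100% of genes, and adjusted p-values within 1% of their p for 100% of genes at NLS and 99.99% at OMM. How RNA was released from the beads is unsettled: the series text gives Proteinase K for NLS and TRIzol for OMM, and every sample label an RNeasy kit.

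Columns were assigned to groups by name. Their numbers (1 and 3 at NLS, 3 and 4 for OMM controls, 2 and 3 for labelled OMM libraries) differ from the sample titles, and libraries are named by the column numbers. A further 4 count columns matched no sample and were not used. No pair of replicates agreed within sampling noise (chi-square per degree of freedom of 4.98 or more).

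The test was that of edgeR 4.0.16 under R 4.3.3 (robust quasi-likelihood F test, TMM scaling, filterByExpr with a minimum count of 10, prior count 0.125, Benjamini-Hochberg adjustment over all tested genes, threshold 0.05, two-sided). NLS and OMM were fitted apart, and their difference as an interaction over 8 libraries. SE was taken as log2 fold change over the root of F. The scripts were tested on simulated data, in which changed genes were called at the NLS spread but not at the OMM or joint spread. The simulation gave every gene of a fit the same spread, whereas real genes differ in spread. It therefore does not show which real genes could be called. The floor, 3 counts, equals 0.171 to 0.311 CPM for NLS libraries and 0.0567 to 0.0847 CPM for OMM libraries. Alternatives were DESeq2 1.42.0, its size factors, library size alone, no filter, a removed length trend, a replicate block and each library left out. snoRNAs were placed inside hosts, and protein-coding hosts found, by containment on the same strand in GENCODE 29, which held 58396 of the 60664 identifiers and all 32 hosts. The symbols of 4 hosts differ there (SNHG29, SNHG30, SNHG31 and SNHG32, the last as the protein-coding C6orf48). Hosts given by library were those with the 8 highest mean CPM in each compartment, the 4 highest and 4 lowest called at NLS and all called in the interaction, with others where a sentence turns on them. Values of some protein-coding hosts are not reported here. The hosts and lists were chosen with earlier results of these data known.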

Additional observations from a re-analysis of the deposited data

Results flagged for a closer look

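The effect of labelling differed between NLS and OMM, by the interaction test of a joint edgeR fit, for 6 hosts. The joint fit gave each gene 1 spread for both compartments, although the libraries of a group differed far more at OMM. The NLS log2 fold change minus the OMM one was 2.53 for SNHG17, 1.64 for SNHG1, 1.75 for SNHG4, 3.67 for EPB41L4A-AS1, 1.37 for SNHG5 and -1.25 for SNHG16. The compartments also differ in library kit and RNA selection, and these cannot be told apart from the place of labelling. All 6 calls were lost when either NLS control library was left out, while the differences stayed close in size: 2.50 and 2.62 for SNHG17, 1.47 and 1.91 for SNHG1, 1.85 and 1.73 for SNHG4, 3.85 and 3.57 for EPB41L4A-AS1, 1.34 and 1.49 for SNHG5 and -1.17 and -1.25 for SNHG16, without control library 1 and without control library 3.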

How the results depend on the processing

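Of the 14 hosts called higher at NLS, 10 were called in every alternative, as was SNHG6 among the 2 called lower. The number called higher was 22 with library size alone, under which the median of all genes was 0.66 rather than 0.14 (log2), and 11 to 21 with a library left out. The number called lower was 1 with library size alone, 5 with the length trend removed and 2 to 4 with a library left out. The NLS median was 1.10 with library size alone and 0.21 to 0.74 with a library left out. At OMM, 2 hosts were called higher by DESeq2, 6 lower by DESeq2, 2 lower without a filter and 0 to 2 lower with a library left out, and removing the length trend gave a median of -0.58. Positive interactions numbered 8 with DESeq2 size factors, 8 with library size alone, 10 without a filter, 16 by DESeq2 and 0 to 13 with a library left out. Negative ones numbered 0 with either other scaling, 2 by DESeq2 and 0 to 2 with a library left out. Among values near 0, SNHG29 changed sign at NLS with library size alone (0.37) and the length trend removed (0.033), and ranged from -0.32 to 0.044 with a library left out. At OMM it was 0.038 with library size alone, 0.058 with the length trend removed and -0.25 to 0.16 with a library left out. With a library left out, SNHG3 ranged from -0.060 to 0.55 at NLS and DANCR from -0.080 to 0.10 at OMM. The causes were not tested. With a replicate block by column number, 15 hosts were called higher and 2 lower at NLS, with a median of 0.66: SNHG22 was lost, and SNHG1 and SNHG12 were gained. Same-numbered NLS libraries did not deviate together (r = -0.033 over 20858 genes), and the OMM arms share only 1 number, so no paired fit was made there or in the interaction. By depth, 52 of the 139 snoRNAs and 29 of the 32 hosts passed the filter on low counts at NLS.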
